A study of Mus musculus with 12 samples.

Results

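The genes described here are 7 homeobox genes of the TALE family, Meis1, Pbx2, Pbx3, Pbx4, Pknox1, Tgif1, and Tgif2, together with Trib2, a target gene of HOXA9 and MEIS1. They were chosen by name as the listed Meis, Pbx, Pknox, and Tgif genes plus Trib2, and they are 8 of the 23309 genes in the deposited expression table. All 8 had at least 1 FPKM (fragments scaled to transcript length and library total) in at least 2 libraries and were tested with 11516 genes in all. The question addressed is how these partners of Hox proteins changed after the activity of a Hox protein, ER-HoxB8, was switched off.

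The cells were myeloid progenitors from mouse bone marrow on a C57BL/6 background, selected for the surface receptor CD117 and immortalized with a retrovirus that carries HoxB8 fused to the estrogen receptor. The fusion protein is active while estradiol (E2) is in the medium. After E2 is removed the progenitors become mature myeloid cells, which the authors tracked by the surface markers CD11b and GR-1. All 6 groups carried the fusion and were grown with the cytokine IL-3. They were wild-type and HMGN1-OE cells, the latter from mice with a transgene for human HMGN1, a nucleosome-binding protein, each at 0, 36, and 96 h after E2 withdrawal with 2 libraries. The promoter of the transgene and the age of the donors were not given in the sources used here. Every change of the members is seen only in cells that were immortalized with a Hox gene. No group was kept in E2 for 36 or 96 h. Loss of the fusion's activity, E2 withdrawal itself, time in culture, and differentiation therefore cannot be told apart.

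TALE proteins have a homeodomain with an insertion of 3 amino acids in its first loop. PBX proteins bind DNA side by side with Hox proteins and sharpen their choice of sites. MEIS and PKNOX proteins bind PBX proteins and hold them in the nucleus, so that a MEIS, a PBX, and a Hox protein can sit together on 1 site. MEIS1 with HOXA9 is a well known pair in acute myeloid leukemia. TGIF proteins belong to the same family but act mainly as repressors, and they bind sites like those of MEIS proteins as well as the Smad proteins of the TGF-beta pathway. TRIB2 is a pseudokinase that brings the ubiquitin ligase COP1 to C/EBP-alpha, a transcription factor of granulocyte differentiation, and so lowers the amount of its full-length form.

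Promoter sequences were taken from RefSeq (GRCm38.p6), which held windows for 6 of the 8 genes but none for Pbx3 and Pknox1. The windows of Meis1, Trib2, and Pbx4 are shown because these 3 genes went from clear expression to the level of genes without signal. Each sequence runs 5′ to 3′ on the strand of the gene, starts 250 bases before the RefSeq start of transcription, and stops where the GENCODE vM21 gene begins, or 17 bases before the RefSeq start for Meis1. Capitals mark the letters TGATTNAT, a core at which Hox and PBX proteins bind together, and TGACAG, a core bound by MEIS, PKNOX, and TGIF proteins.
Meis1, chr11:19018986-19019219, minus strand: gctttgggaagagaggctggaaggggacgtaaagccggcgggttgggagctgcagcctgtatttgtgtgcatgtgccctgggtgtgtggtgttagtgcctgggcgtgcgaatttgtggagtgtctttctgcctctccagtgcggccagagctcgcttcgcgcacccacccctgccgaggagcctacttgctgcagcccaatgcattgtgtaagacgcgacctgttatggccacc
Trib2, chr12:15816923-15817035, minus strand: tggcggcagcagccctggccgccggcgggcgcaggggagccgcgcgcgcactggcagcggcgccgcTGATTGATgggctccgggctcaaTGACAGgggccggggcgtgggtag
Pbx4, chr8:69832374-69832490, plus strand: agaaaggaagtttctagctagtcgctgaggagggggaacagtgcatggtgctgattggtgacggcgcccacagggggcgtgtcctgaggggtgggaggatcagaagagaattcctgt

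The Trib2 window held both letter strings, TGATTGAT at bases 184 to 177 before the start and TGACAG at bases 161 to 156. These matches do not overlap. Both strands of the 250 bases before each start were searched. TGATTNAT was found in 2.82% of the 32851 promoter windows of the table, TGACAG in 15.9%, and both in 0.447%. The single windows of Meis1, Pbx2, Pbx4, and Tgif2 held neither string, and 1 of the 5 windows of Tgif1 held TGATTTAT. The 2 strings were chosen after the Trib2 sequence had been read, and a match describes letters, not binding.

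In GENCODE vM21 the genes are protein coding and lie on chromosomes 11 (Meis1), 17 (Pbx2, Pknox1, and Tgif1), 2 (Pbx3 and Tgif2), 8 (Pbx4), and 12 (Trib2). The library kit, TruSeq RNA v2, does not mark strand, so reads of overlapping genes cannot be told apart. Exons of Pbx2 share 227 bases (6.24% of its exon bases) with Gpsm3, a gene on the same strand whose level over the 4 libraries of a time was 18.0 to 31.8 FPKM at 0 h and 45.5 to 85.6 FPKM at 96 h. The part of Gpsm3 in the Pbx2 values was not tested. Exons of Meis1, Pknox1, and Tgif2 overlap noncoding genes, and those of Pbx3, Pbx4, Tgif1, and Trib2 overlap none.

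The deposited FPKM had been scaled by the authors to synthetic RNAs that were added to RNA from a fixed number of cells. A lower value is therefore read as fewer transcripts per cell relative to these RNAs. Differences in cell counting or in recovery of RNA before they were added also enter the values, and their part was not tested. The median of log2(FPKM + 1) over the tested genes was 3.91 to 4.78 in the 4 libraries at 0 h, 4.19 to 4.97 at 36 h, and 2.02 to 3.06 at 96 h. The median change of all genes over both genotypes was 0.26 from 0 to 36 h and -1.52 from 0 to 96 h (log2). Changes of the members are therefore given as deposited and also after centring (the median of a library is subtracted from its values), which reads them relative to the other genes. Fewer cells of a type and less RNA per cell cannot be told apart. Of the maturation markers of neutrophils, 10 of the 11 tested rose from 0 to 96 h and 1 fell. Mmp9, among those that rose, reached 1 FPKM only in its libraries at 96 h, so its call is no test. Of the progenitor and primary granule markers 8 of 9 fell. Beside these counts, 5.61% of all genes were called higher and 80.3% lower. The 4 lymphoid markers summed to at most 1.98 FPKM in a library. Erythroid markers summed to 4.11 to 40.8 FPKM at 0 h and to 1.10 to 7.44 FPKM at 96 h (2 of 2 tested fell), and megakaryocyte markers to 11.4 to 37.7 FPKM and 2.20 to 7.95 FPKM (1 of 4 fell). Mast cell, basophil and eosinophil markers summed to 424 to 1011 FPKM at 0 h and to 320 to 2506 FPKM at 96 h (2 of 6 rose and 1 fell). Among them the eosinophil genes Epx and Prg2 were at 0.409 to 4.73 FPKM and at 2.54 to 19.8 FPKM at 0 h. At 96 h Epx was at 153 and 49.1 FPKM in wild-type and at 14.1 and 25.3 FPKM in HMGN1-OE cells. Prg2 was then at 1970 and 933 FPKM in wild-type and at 186 and 472 FPKM in HMGN1-OE cells. Macrophage markers summed to 48.1 to 137 FPKM at 0 h and to 34.1 to 49.1 FPKM at 96 h (1 of 3 rose and 1 fell). The part of any of these cells in the members' changes was not tested. S100a9, a maturation marker of neutrophils, was listed at 0.05 FPKM in the first wild-type library at 96 h. In the second it was at 26546 FPKM, so a value near 0 need not mean a silent gene.

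One library was in part unlike the stage on its label. Over all tested genes both wild-type libraries at 36 h were nearer to a wild-type library at 0 h (Pearson r = 0.97 for the first and 0.98 for the second, across genes) than to each other (0.95), so this measure does not single out either. The second listed one stood apart by some stage genes. The 202 genes that fell between 0 and 36 h in the HMGN1-OE libraries stood in this library at a mean of -0.70 on the centred log2 scale, between the wild-type values of -0.02 and -0.80 at 0 h, against -1.90 in the first wild-type library at 36 h and -1.41 and -1.43 in the HMGN1-OE libraries. The 153 genes that rose between 0 and 36 h in the HMGN1-OE libraries stood in this library at a mean of -0.49. That lay between the wild-type values of -0.56 and -0.32 at 0 h, against 0.78 in the first wild-type library at 36 h. The HMGN1-OE libraries at 36 h, by which these genes were picked, were at 0.40 and 0.26. Flt3, a receptor of early progenitors, was at 67.0 FPKM in the second wild-type library and at 4.10 FPKM in the first. Single genes were not uniform. Cebpe, a factor of granulocyte maturation, was at 102 FPKM in it as deposited, near the 95.4 FPKM of the first library at 36 h. In wild-type cells at 0 h Cebpe was at 43.2 and 35.7 FPKM. Gata2, a progenitor factor, was at 53.1 FPKM in it and at 68.4 FPKM in the first. Each wild-type library at 0 h had 23.3 FPKM of Gata2. In HMGN1-OE cells Gata2 was at 67.6 and 25.9 FPKM at 0 h and at 32.3 and 53.0 FPKM at 36 h. There Gata2 did not separate the times. The label was kept, and the main results that use the 36 h libraries are also given without this library. The transgene is human, and mouse Hmgn1, which does not check it, differed by 0.35 (SE 0.55) on the log2 scale between HMGN1-OE and wild-type cells at 0 h. Hoxb8, whose reads include the fusion, was at 46.2 to 90.7 FPKM at 0 h, 96.2 to 177.9 FPKM at 36 h, and 26.8 to 65.6 FPKM at 96 h, so RNA of the fusion or of the mouse gene, which were not separated, was still present.

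At 0 h, with the fusion active, the members spanned an order of levels from Tgif1 to Pbx4. FPKM is a level per length of transcript and can be compared between genes, and the geometric mean of the 4 libraries was 48.3 FPKM for Tgif1 and 30.0 FPKM for Pbx2. Below them stood Pbx3 at 15.7, Pknox1 at 12.8, Meis1 at 10.1, Trib2 at 7.32, Tgif2 at 4.66, and Pbx4 at 3.19 FPKM. Neighbours in this order had overlapping libraries, except that the lowest Pbx2 value (21.8 FPKM) was above the highest Pbx3 value (19.6 FPKM). Among other TALE genes, Meis2, Meis3, Mkx, and the 6 Irx genes stayed below 1 FPKM in every library and did not pass the filter. Pknox2 passed it but was also below 1 FPKM in every library at 0 and 36 h.

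**Figure D1:**
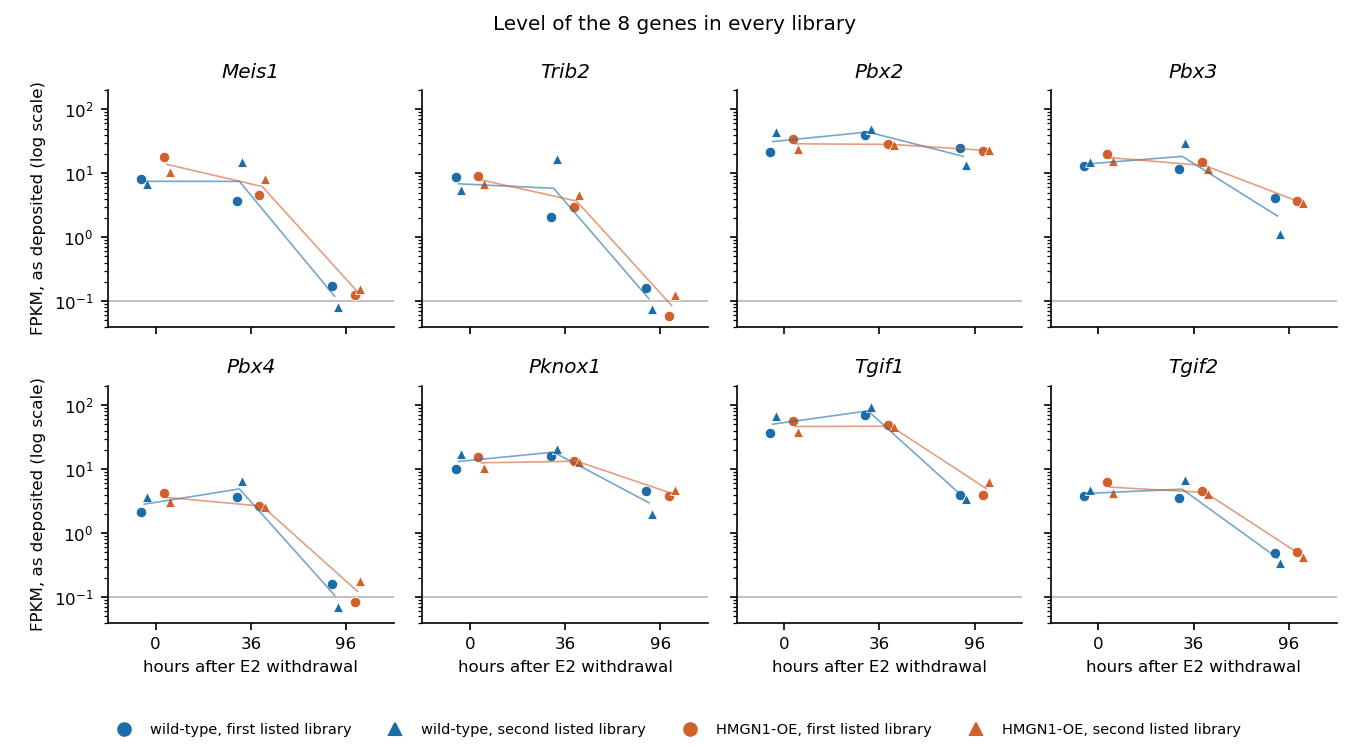
FPKM as deposited (log scale) against hours after E2 withdrawal for the 8 genes, with 1 point per library, lines through the geometric means of the 2 libraries of a group, and a grey band at 0.097 to 0.105 FPKM, the value most frequent among genes without signal. Meis1, Trib2, and Pbx4 reach the band at 96 h, while Pbx2 stays between 13.6 and 24.9 FPKM.

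Meis1 and Trib2 had similar courses. They were expressed at 0 h and were at the level of silent genes at 96 h. At 36 h they spanned 3.66 to 15.2 FPKM (Meis1) and 2.05 to 16.5 FPKM (Trib2), or 3.66 to 8.26 FPKM and 2.05 to 4.51 FPKM without the second wild-type library at 36 h. Meis1 was at 8.11 and 6.90 FPKM in wild-type cells and at 18.2 and 10.4 FPKM in HMGN1-OE cells at 0 h. At 96 h it was at 0.173 and 0.082 FPKM in wild-type and at 0.125 and 0.157 FPKM in HMGN1-OE cells. Genes without signal are listed near 0.1 FPKM in this table (the most frequent value of a library was 0.097 to 0.105), so no Meis1 RNA was distinguishable from them at 96 h and no fold is given. Trib2 was at 8.60 and 5.44 FPKM in wild-type and at 8.96 and 6.87 FPKM in HMGN1-OE cells at 0 h. At 96 h Trib2 was at 0.161 and 0.074 FPKM in wild-type and at 0.058 and 0.124 FPKM in HMGN1-OE cells. All libraries at 96 h were below all at 0 h for both genes, as they were for 77% of all genes tested.

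From 0 to 96 h over both genotypes, 7 of the 8 genes fell, and Pbx2 did not pass the test (limma with a trend on log2(FPKM + 1), Benjamini-Hochberg adjustment over 11516 genes). As deposited this share is near the background, since 80.3% of all genes tested were called lower and 5.61% higher. The printed SE come from limma's trend over expression, since the prior degrees of freedom were infinite. The members' median change was -2.05 and that of all genes -1.52. Relative to the library medians, 3 members fell, Meis1, Tgif1, and Trib2, 1 rose, Pbx2, and 4 did not pass the test, beside 37.1% of all genes called lower and 39.9% higher. The same split within genotypes was 7 of 8 lower in wild-type cells, where 77.2% of genes were called lower, and 7 of 8 lower in HMGN1-OE cells, where 62.4% were. After centring, 2 members were called in wild-type cells, where 70.3% of genes were called in either direction, and 3 in HMGN1-OE cells, where 63.4% were. The pseudocount weighs on these counts, since with 0.1 in place of 1, added after the values were seen, 7 of 8 were called over both genotypes relative to the medians, all but Pknox1, beside 77.5% of all genes.

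Meis1 had the most negative change of the members, -3.31 (SE 0.29, adjusted p = 1.09e-27, limma), and 4.2% of the tested genes had a lower one. Relative to the library medians it fell by 1.73 on the log2 scale (SE 0.38, adjusted p = 0.00263, limma). Trib2 fell by 2.92 (SE 0.28, adjusted p = 6.71e-24, limma) as deposited and by 1.34 (SE 0.49, adjusted p = 0.0318, limma) relative to the medians. The pseudocount of 1 understates the change of genes that end near 0.1 FPKM. With the pseudocount of 0.1 the changes relative to the medians were -3.73 for Meis1 and -3.47 for Trib2. Both genes end at the level of genes without signal, so the size of their changes depends on the pseudocount and is not a measured fold. In exact permutation tests of 4 libraries at 96 h against 4 at 0 h, two-sided, with 70 splits, Meis1 and Trib2 reached p = 0.0286 as deposited, the smallest value the design allows (adjusted p = 0.0351). On the centred scale the exact test gave p = 0.0286 for Meis1 (adjusted p = 0.0403) and p = 0.0571 for Trib2 (adjusted p = 0.0749).

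**Figure D2:**
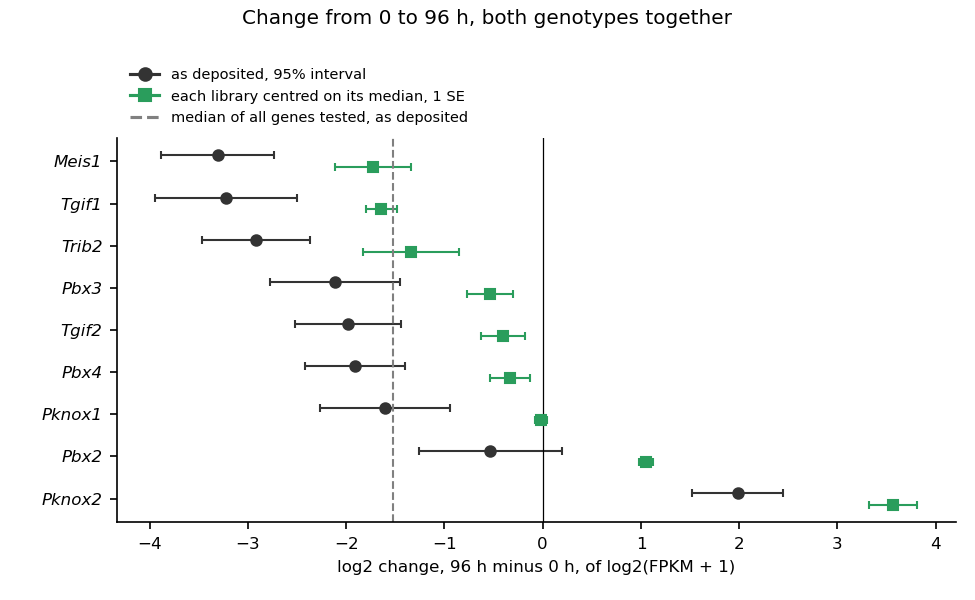
Change of log2(FPKM + 1) from 0 to 96 h over both genotypes for the 8 genes and Pknox2, as deposited (black circles, 95% interval) and relative to the library medians (green squares, 1 SE), beside the median change of all tested genes (dashed line, -1.52). Black circles of Meis1, Tgif1, and Trib2 lie farthest left of the dashed line, and Pbx2 and Pknox2, which passed the filter only by its libraries at 96 h, lie right of it.

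The Pbx genes parted. PBX proteins are the direct partners of Hox proteins, and Pbx2 was the member whose fall from 0 to 96 h did not pass the test as deposited and which rose relative to the library medians. Pbx2 was at 21.8 and 44.7 FPKM at 0 h, at 40.1 and 48.7 FPKM at 36 h, and at 24.9 and 13.6 FPKM at 96 h in wild-type cells. In HMGN1-OE cells it was at 34.8 and 23.9 FPKM, at 28.6 and 28.0 FPKM, and at 22.2 and 23.3 FPKM. Values at 0 and 96 h overlapped. The change from 0 to 96 h was -0.53 as deposited (SE 0.37, adjusted p = 0.169, limma; exact permutation p = 0.2, adjusted p = 0.22) and, with the opposite sign, 1.05 relative to the library medians (SE 0.07, adjusted p = 1.74e-06, limma; exact permutation p = 0.0286, adjusted p = 0.0403). The deposited fall passed the test without the first wild-type library at 0 h (-0.78, adjusted p = 0.0438, limma) or without the first wild-type library at 96 h (-0.74, adjusted p = 0.0396, limma).

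Pbx3, which is linked to HOXA9-driven leukemia, was at 13.2 and 14.8 FPKM in wild-type and at 19.6 and 15.7 FPKM in HMGN1-OE cells at 0 h. At 96 h it was at 4.04 and 1.14 FPKM in wild-type and at 3.65 and 3.40 FPKM in HMGN1-OE cells, without overlap with 0 h. It fell by 2.11 on the log2 scale (SE 0.34, adjusted p = 1.54e-09, limma) as deposited, and its change relative to the medians was -0.53 (SE 0.23, adjusted p = 0.0623, limma), or -0.72 with the pseudocount of 0.1 (adjusted p = 0.0342, limma), which is called. Pbx4 had the lowest geometric mean of the members at 0 h, with 2.16 to 4.23 FPKM over the 4 libraries. At 36 h Pbx4 was at 2.59 to 6.56 FPKM (2.59 to 3.66 FPKM without the second wild-type library). At 96 h it was at 0.162 and 0.070 FPKM in wild-type and at 0.084 and 0.180 FPKM in HMGN1-OE cells, the level of genes without signal. Its change was -1.91 as deposited (SE 0.26, adjusted p = 1.43e-12, limma) and -0.33 relative to the medians (SE 0.20, adjusted p = 0.167, limma). With the pseudocount of 0.1 that was added later, the centred change of Pbx4 was -2.18 (adjusted p = 9.03e-06, limma), so its call on this scale rests on the pseudocount.

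Shares set genes of the same library against each other. The spike-in correction was a loess fit, which can scale genes of different level differently, so its part in these shares was not tested. Pbx2 made up 56.1% to 70.7% of the summed FPKM of Pbx2, Pbx3, and Pbx4 at 0 h, 57.5% to 72.6% at 36 h (61.8% to 72.6% without the second wild-type library), and 85.5% to 91.8% at 96 h. The mean rose from 61.2% ± 6.5 to 87.4% ± 3.0 (SD, n = 4 libraries each; exact permutation p = 0.0286, adjusted p = 0.0429 over 3 shares). Relative to Pbx3 and Pbx4, then, more of the RNA was that of Pbx2 in every library at 96 h than in any at 0 h.

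The Pknox genes code for alternative partners of PBX proteins. Pknox1 was at 10.0 and 17.2 FPKM in wild-type and at 15.3 and 10.3 FPKM in HMGN1-OE cells at 0 h. At 96 h Pknox1 was at 4.48 and 1.98 FPKM in wild-type and at 3.73 and 4.66 FPKM in HMGN1-OE cells. Its change of -1.60 as deposited (SE 0.34, adjusted p = 4.30e-06, limma) was close to that of the median gene, and relative to the medians it was -0.02 (SE 0.06, adjusted p = 0.767, limma). Within HMGN1-OE cells the deposited fall of Pknox1 did not pass the test without the first library at 0 h (adjusted p = 0.123, limma) or without the first at 96 h (adjusted p = 0.0996, limma). Pknox2 was at 0.154 to 0.326 FPKM at 0 h and at 0.157 to 0.310 FPKM at 36 h. At 96 h Pknox2 was at 6.16 and 2.26 FPKM in wild-type and at 4.36 and 3.34 FPKM in HMGN1-OE cells, above every earlier library. Pknox2 passed the filter only by its libraries at 96 h, so its difference between 96 and 0 h, 1.99 on the log2 scale as deposited and 3.56 relative to the medians, is given without a test.

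The share of Pknox2 in the summed FPKM of Pknox1 and Pknox2 was 1.12% to 2.26% at 0 h, 1.14% to 1.88% at 36 h, and 41.8% to 57.9% at 96 h. Over the 4 libraries of a time its mean was 1.68% ± 0.49 at 0 h and 51.7% ± 6.9 at 96 h (SD), also without a test. Meis1 and Pknox1 compete for the same surface of PBX proteins. Meis1 made up 28.6% to 54.4% of the summed FPKM of Meis1 and Pknox1 at 0 h, 18.4% to 42.2% at 36 h (18.4% to 38.8% without the second wild-type library), and 3.25% to 3.96% at 96 h (exact permutation p = 0.0286 for 96 against 0 h, adjusted p = 0.0429). The last value holds a Meis1 signal that is at the level of silent genes.

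**Figure D3:**
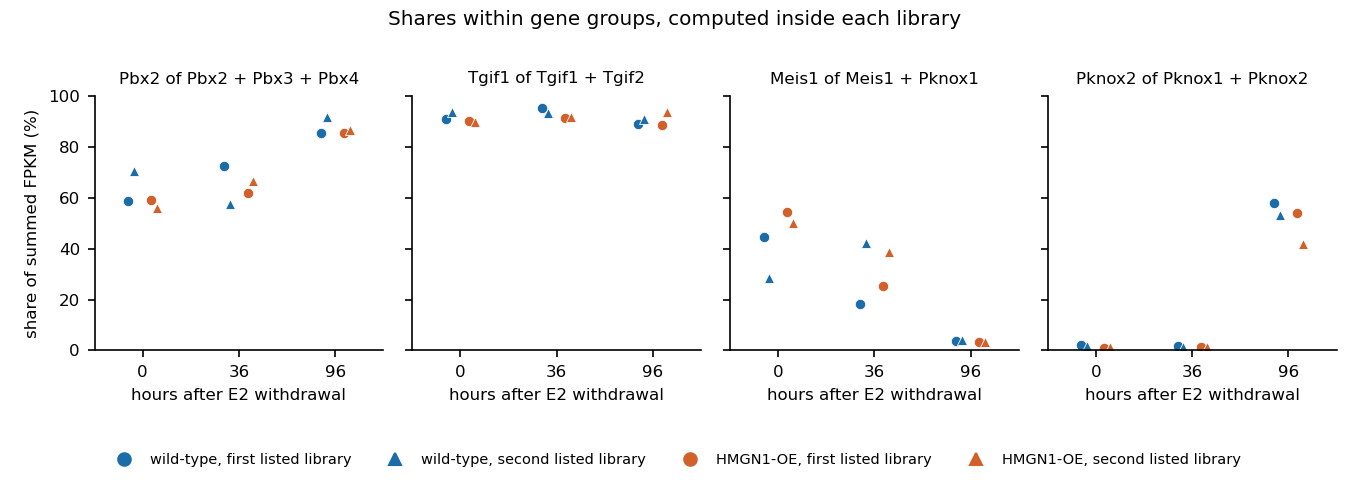
Share (%) of 1 gene in the summed FPKM of the genes it is set against, computed inside each library, against hours after E2 withdrawal. The 4 libraries at 96 h lie above all earlier ones for Pbx2 (85.5% to 91.8%) and Pknox2 (41.8% to 57.9%) and below them for Meis1 (3.25% to 3.96%), while Tgif1 stays between 88.6% and 95.3%.

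The TGIF repressors fell with the others. Tgif1, the most abundant member at 0 h, was at 36.9 and 68.7 FPKM in wild-type and at 57.2 and 37.6 FPKM in HMGN1-OE cells. At 36 h Tgif1 was at 70.7 and 93.2 FPKM in wild-type and at 48.4 and 45.2 FPKM in HMGN1-OE cells. At 96 h it was at 3.89 and 3.46 FPKM in wild-type and at 3.92 and 6.33 FPKM in HMGN1-OE cells, below every library at 0 and 36 h. At 36 h both HMGN1-OE libraries were below both wild-type ones, as they were for 84.4% of all genes. Tgif1 fell by 3.22 from 0 to 96 h (SE 0.37, adjusted p = 4.03e-17, limma), and 5.0% of the tested genes had a lower change. Relative to the library medians it fell by 1.64 (SE 0.16, adjusted p = 1.25e-05, limma; exact permutation p = 0.0286, adjusted p = 0.0403). The ratio of the geometric means, 0 h over 96 h, was 11.3 for Tgif1 and 10.7 for Tgif2.

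Tgif2 was at 3.74 and 4.64 FPKM in wild-type and at 6.36 and 4.28 FPKM in HMGN1-OE cells at 0 h. At 96 h it was at 0.483 and 0.345 FPKM in wild-type and at 0.502 and 0.426 FPKM in HMGN1-OE cells, above the level of genes without signal in each library. Its change was -1.98 as deposited (SE 0.28, adjusted p = 4.57e-12, limma) and -0.40 relative to the medians (SE 0.22, adjusted p = 0.126, limma). With a pseudocount of 0.1 the centred change of Tgif2 was -1.42 (adjusted p = 0.000564, limma). Tgif1 made up 89.8% to 93.7% of the summed FPKM of both genes at 0 h and 88.6% to 93.7% at 96 h (exact permutation p = 0.714, adjusted p = 0.714), and the mean share differed by less than the SD of either time.

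At 96 h the order of the members had changed. Pbx2 led with a geometric mean of 20.4 FPKM, and its lowest library (13.6 FPKM) was above the highest of Tgif1 (6.33 FPKM). Tgif1 at 4.27, Pknox1 at 3.52, and Pbx3 at 2.75 FPKM had overlapping libraries. Tgif2 at 0.434 FPKM lay apart from Pbx3 above it. Meis1, Pbx4, and Trib2 were last and cannot be ordered.

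The members fell between 36 and 96 h. Over both genotypes, 8 of 8 were called lower as deposited in this interval, where 86.1% of all genes tested were called lower and 4.15% higher, and in each the 4 libraries at 96 h lay below the 4 at 36 h, as in 83.7% of all genes. The changes ran from -3.56 for Tgif1 (SE 0.37, adjusted p = 1.06e-20, limma) to -0.76 for Pbx2 (SE 0.37, adjusted p = 0.0463, limma). The call of Pbx2 was lost when any of 9 of the 12 libraries was left out in turn (adjusted p up to 0.136) and turned to a rise of 1.07 (SE 0.07, adjusted p = 1.62e-06, limma) relative to the library medians. On that scale Tgif1 fell by 1.73 (SE 0.16, adjusted p = 9.69e-06, limma) and Meis1 fell by 0.97 (SE 0.38, adjusted p = 0.0424, limma; exact permutation p = 0.0571, adjusted p = 0.0747, with overlapping libraries), the others were not called, and 36.9% of all genes were called lower and 40.1% higher. By genotype, 8 of 8 were called lower in wild-type cells (86.3% of all genes) and 7 of 8, all but Pbx2, in HMGN1-OE cells (64.9% of all genes). After centring, 2 members were called in each genotype, beside 71.9% of all genes for wild-type and 61% for HMGN1-OE cells. In HMGN1-OE cells alone, Pbx3 (adjusted p = 0.0515, limma) and Pknox1 (adjusted p = 0.0573, limma) were no longer called without the first library at 36 h, and Pknox1 (adjusted p = 0.0804, limma) also without the first at 96 h. Without the second wild-type library at 36 h, 7 of 8 were called lower over both genotypes (83.6% of all genes), and relative to the medians only Tgif1 fell and Pbx2 rose (35.8% and 38.4% of all genes), while Meis1 was no longer called (-0.59, adjusted p = 0.133, limma). In wild-type cells Pbx2 lost its call without either library at 36 h (adjusted p = 0.0591 and 0.136, limma) or without the second at 96 h (adjusted p = 0.157, limma).

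In the first 36 h no member was called in either genotype or over both, as deposited or relative to the medians (limma, over 11516 genes). Of all genes, 2.21% were called over both genotypes, 0.617% within wild-type cells, and 1.8% within HMGN1-OE cells. Relative to the medians these shares were 0.512%, 0.00868%, and 0.13%, so a count of 0 members says little there. At an unadjusted p under 0.05 there were 0 members over both genotypes (6.9% of all genes), 0 within wild-type cells (3.28%), and 2 within HMGN1-OE cells (5.02%). A linear model without moderation called 0 members and 1 to 3 of the 11516 genes. The 2 members with an unadjusted p under 0.05 were Meis1 and Trib2. In HMGN1-OE cells Meis1 went from 18.2 and 10.4 FPKM to 4.64 and 8.26 FPKM, a change of -1.03 (SE 0.41, adjusted p = 0.415, limma). Trib2 went from 8.96 and 6.87 FPKM to 2.99 and 4.51 FPKM, a change of -0.92 (SE 0.40, adjusted p = 0.585, limma). Relative to the medians the changes were -1.06 for Meis1 (adjusted p = 0.405, limma) and -0.95 for Trib2 (adjusted p = 0.606, limma). Both HMGN1-OE libraries at 36 h were below both at 0 h for these 2 genes and for Pbx3 and Pbx4, as they were for 9.47% of all genes. After centring they were below for 6 members, Meis1, Pbx2, Pbx3, Pbx4, Tgif2, and Trib2, and for 24% of all genes.

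In wild-type cells the values of these 2 genes turned on the second library at 36 h. Meis1 was at 3.66 FPKM in the first wild-type library at 36 h and at 15.2 FPKM in the second, and Trib2 was at 2.05 and 16.5 FPKM. The second library thus held more Trib2 than any library at 0 h. The wild-type changes from 0 to 36 h were 0.03 for Meis1 (SE 0.41, adjusted p = 0.95, limma) and -0.11 for Trib2 (SE 0.40, adjusted p = 0.829, limma), and -0.44 and -0.58 relative to the medians (adjusted p = 1 for each, limma). Without that library, the change over both genotypes was -1.14 for Trib2 (adjusted p = 0.00453, limma), which is then called, and -0.95 for Meis1 (adjusted p = 0.0704, limma), which is not. The other 3 libraries at 36 h lay below all 4 at 0 h for Trib2, as did 2.73% of all genes tested. After centring they overlapped for Trib2 (9.18% of all genes lay lower), and neither gene was called without that library, with changes of -1.33 for Trib2 (adjusted p = 0.0624, limma) and -1.13 for Meis1 (adjusted p = 0.0751, limma). The remaining wild-type library then stands alone in its group and is assumed to vary like the others. The other 6 members had changes from -0.33 to 0.24 without that library, with adjusted p of at least 0.975.

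**Figure D4:**
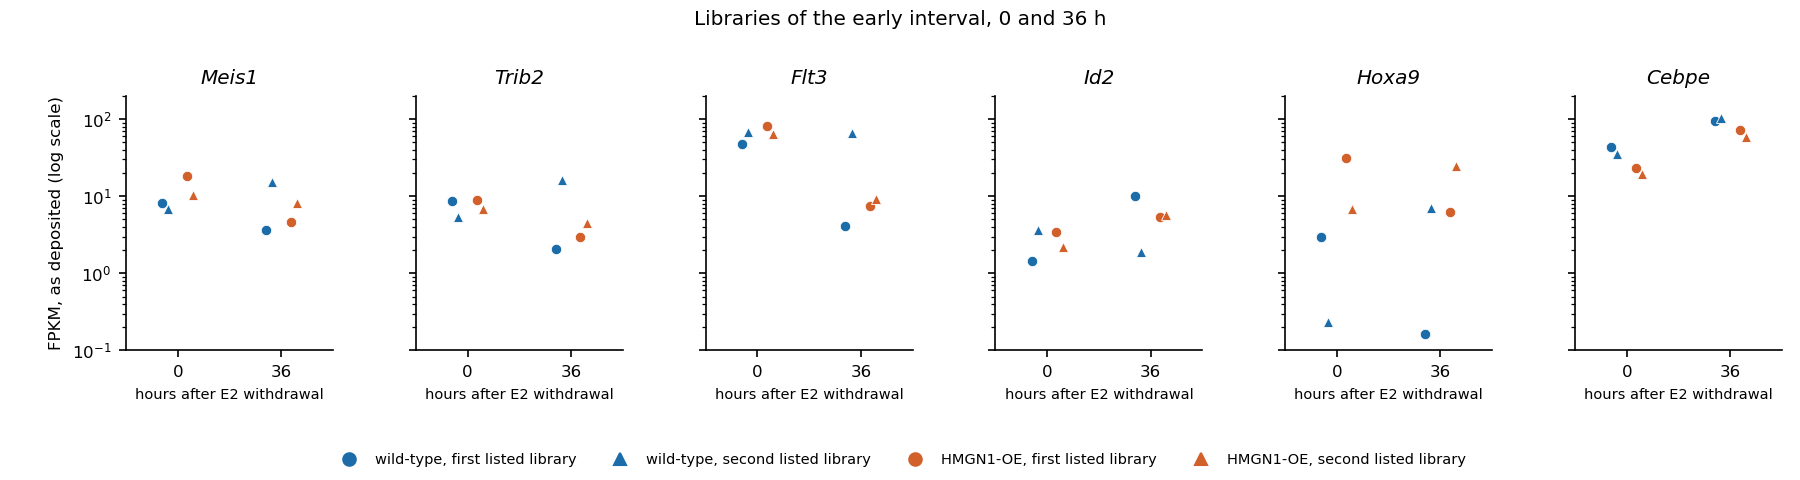
FPKM as deposited (log scale) at 0 and 36 h after E2 withdrawal for Meis1, Trib2, Flt3, Id2, Hoxa9, and Cebpe, with 1 point per library. In the first 4 panels the second wild-type library at 36 h (blue triangle) lies with or beyond the libraries at 0 h, for example at 67.0 FPKM of Flt3 against 4.10 FPKM in the first, while for Cebpe it lies with the other libraries at 36 h, above those at 0 h.

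HMGN1-OE and wild-type cells were compared at each time and over all times, and 0 of 8 members were called in any of these comparisons or in the interactions of genotype with time, as deposited or relative to the medians. Without the second wild-type library at 36 h the count also stayed at 0 in the comparisons that use the 36 h libraries. The background as deposited was 1.36% of genes at 0 h, 1.26% at 36 h, 0.669% at 96 h, and 1.95% over all times. For the interactions from 0 to 36 h, 36 to 96 h, and 0 to 96 h it was 0.504%, 0.547%, and 0.677%. Relative to the medians it was 0.104% at 0 h, 0.0521% at 36 h, 0.0608% at 96 h, and 0.33% over all times. For the same interactions it was 0.0174%, 0.0174%, and 0.0347% on that scale. With so few genes called, a count of 0 members says little. At an unadjusted p under 0.05 the count of members was 0 in each of these 7 comparisons, beside 1.91% to 5.15% of all genes, and a linear model without moderation called 0 members and 2 to 10 of the 11516 genes. The smallest p of an exact permutation test with 2 libraries a side is 0.333. At 0 h Meis1 was nearest to a call, with a value in HMGN1-OE cells above that in wild-type cells by 0.80 (95% interval -0.01 to 1.62, adjusted p = 1, limma) and by 0.93 relative to the medians (adjusted p = 0.994, limma), with both HMGN1-OE libraries above both wild-type ones. As deposited Pbx3 had the same separation, and 3.26% of all genes did. After centring Meis1, Pbx4, and Tgif2 had it, and 19.8% of all genes did. The SE of the Meis1 difference from its own libraries was 0.60, against 0.41 from the trend.

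At 36 h the genotype difference depended on which wild-type library was kept. For Trib2 the value in HMGN1-OE minus that in wild-type cells was -0.64 (SE 0.40, adjusted p = 0.496, limma), or -0.06 relative to the medians (adjusted p = 1, limma), and the difference was -1.90 without the first wild-type library (adjusted p = 0.00536, limma) and 0.62 without the second (adjusted p = 0.829, limma). For Meis1 the difference of -0.27 (SE 0.41, adjusted p = 0.572, limma) became 0.63 (adjusted p = 0.829, limma) without the second. The interaction from 0 to 96 h was -0.78 for Meis1 (95% interval -1.93 to 0.37) and -0.20 for Trib2 (95% interval -1.30 to 0.89), so a difference of -1 log2 unit lies inside both intervals. Relative to the medians these were -1.32 (adjusted p = 0.515, limma) and -0.74 (adjusted p = 0.755, limma).

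Hox cluster genes are the partners of these cofactors. Of 39 Hox genes, 11 were tested, and from 0 to 96 h 9 of them fell as deposited with a median of -0.71, beside 80.3% of all genes called lower. Relative to the medians 6 were higher and 0 lower, beside 39.9% and 37.1% of all genes. Some Hox genes were near the level of genes without signal in wild-type cells. Hoxa3 was at 0.161 and 0.119 FPKM at 0 h and at 0.110 and 0.067 FPKM at 96 h there. With a pseudocount of 1 such a gene can hardly fall, so lower library medians alone raise its centred value. The part of this in the 6 calls was not tested. Hoxa9, the partner of MEIS1, fell by 1.58 as deposited (SE 0.29, adjusted p = 1.02e-07, limma), Hoxa7 by 1.54 (SE 0.26, adjusted p = 5.22e-09, limma), and Hoxa5 by 1.10 (SE 0.24, adjusted p = 1.07e-05, limma), and none of the 3 was called relative to the medians (adjusted p = 0.998, 0.959, and 0.356, limma). Hoxa9 at 0 h was at 31.5 and 6.87 FPKM in HMGN1-OE cells and at 2.99 and 0.230 FPKM in wild-type cells. Meis1 had the same order over these 4 libraries, 18.2, 10.4, 8.11, and 6.90 FPKM. At 36 h Hoxa9 was at 6.17 and 24.6 FPKM in HMGN1-OE cells and at 0.164 and 7.06 FPKM in wild-type cells. There the orders differed, since Meis1 was highest in the second wild-type library (15.2 FPKM).

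Hox genes of the A cluster were called between genotypes. Hoxa9 was higher in HMGN1-OE cells by 2.02 over all times (SE 0.23, adjusted p = 2.57e-15, limma), and Hoxa7 by 1.42 (SE 0.21, adjusted p = 2.32e-09, limma). Hoxa5 was also called higher (1.11, adjusted p = 2.81e-06, limma), beside 0.851% of all genes. Hoxa4, Hoxa6, and Hoxa10 reached 1 FPKM in 2 libraries only by way of HMGN1-OE cells, where they were higher. Their differences of 0.60, 0.71, and 0.68 are given without a test. Without the second wild-type library at 36 h the differences were 2.49 for Hoxa9, 1.74 for Hoxa7, and 1.33 for Hoxa5. On the centred scale none of the 6 was called (adjusted p from 0.31 to 0.502, limma), beside 0.174% of all genes called higher. The differences there were 2.12 for Hoxa9, 1.52 for Hoxa7, and 1.21 for Hoxa5. For Hoxa4, Hoxa6, and Hoxa10 they were 0.70, 0.81, and 0.79, so each of the 6 was larger than as deposited. On that scale the prior is also finite, so the spread of a gene's own libraries counts. Scale and prior changed together, and their parts in the lost calls were not tested. Whether the genotype difference of a Hox gene differs from that of a member was not tested.

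HOXA9 and MEIS1 act through shared target genes. Of 20 listed targets 19 were tested, and 15 fell and 1 rose from 0 to 96 h, with a median of -2.84 against -1.52 for all genes. Relative to the medians 12 were lower and 5 higher. As deposited 80.3% of all genes were called lower, close to the share of the targets, and relative to the medians 37.1% were lower and 39.9% higher. Cd34, a surface protein of progenitors, fell by 6.90 (SE 0.40, adjusted p = 1.13e-62, limma), Flt3 fell by 5.85 (SE 0.34, adjusted p = 8.13e-65, limma), and Sox4, a transcription factor of immature cells, fell by 4.83 (SE 0.33, adjusted p = 7.05e-46, limma). Id2, an inhibitor of basic helix-loop-helix factors, rose by 4.36 (SE 0.34, adjusted p = 5.39e-35, limma), from 1.43 to 3.68 FPKM at 0 h to 49.5 to 106 FPKM at 96 h. These 4 genes kept their direction and call relative to the medians. From 0 to 36 h, 1 of the 19 was called lower and 0 higher, beside 0.973% of all genes called lower. Without the second wild-type library at 36 h, 3 were called lower, beside 1.75% of all genes. Of all comparisons between genotypes and interactions, Ccl4, a chemokine, was the one target called, lower in HMGN1-OE cells by 0.85 over all times (SE 0.25, adjusted p = 0.0418, limma), beside 1.09% of all genes called lower. Relative to the medians it was -0.75 and not called (adjusted p = 0.396, limma). Without the second wild-type library at 36 h the difference of Ccl4 was -1.06 over all times (adjusted p = 0.00817, limma), and Ccl4 was also called at 36 h (-2.04, adjusted p = 0.0137, limma), beside 1.2% of all genes called lower.

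Upstream regulators of Hoxa9 and Meis1 lay near the background. All 8, the chromatin proteins of the MLL pathway and their companions, were called lower from 0 to 96 h, beside 80.3% of all genes, with a median of -1.73 against -1.52. Relative to the medians 4 were lower and 2 higher, beside 37.1% and 39.9% of all genes. The 3 with the largest falls were Kdm1a, a histone demethylase (-2.84), Men1, the menin scaffold of MLL complexes (-2.50), and Psip1, which tethers them to chromatin (-2.48). Of the 13 partners and corepressors of TALE proteins, 10 fell, also near that share, with a median of -1.23, and 7 were higher and 3 lower relative to the medians. Those that fell most were Hdac2 (-2.65), Crtc1 (-2.09), and Hdac1 (-2.02), 2 histone deacetylases and a coactivator of CREB that binds MEIS1.

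The genes around Trib2 did not move as a group. Trib1, its closest relative, rose by 1.11 from 0 to 96 h (SE 0.29, adjusted p = 0.000244, limma), from 1.17 to 4.15 FPKM at 0 h to 4.61 to 8.66 FPKM at 96 h. Trib1 thus lay above every 0 h library at 96 h, where Trib2 had no signal. Cebpa, which codes for the protein that TRIB2 acts on, fell by 2.67 (SE 0.40, adjusted p = 7.78e-11, limma), from 88.2 to 158 FPKM at 0 h to 9.52 to 31.8 FPKM at 96 h. Rfwd2, which codes for the ligase COP1, fell by 1.14 as deposited (SE 0.35, adjusted p = 0.00176, limma) and rose by 0.44 relative to the medians (adjusted p = 0.000362, limma). Trib3, a further relative, was not called as deposited (0.30, SE 0.31, adjusted p = 0.341, limma) and was 1.88 higher relative to the medians (adjusted p = 1.04e-05, limma).

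For each member but Pbx4 the 3 genes with the most similar course were taken by Pearson correlation of centred log2 values over the 12 libraries, which share 3 times and their libraries, so the values describe likeness only. They were Acot2, Rttn, and Zfpm1 for Meis1 (r of 0.98), Sertad3, Lasp1, and Elf4 for Pbx2 (0.99), and Calcrl, Btnl2, and Cdkn2c for Pbx3 (0.92 to 0.93). For Pknox1 they were Arxes1, Phlda3, and Ighmbp2 (0.90 to 0.93), for Tgif1 Trub1, Fubp3, and Cd320 (0.99), for Tgif2 Cand2, Ighmbp2, and Gdf11 (0.95 to 0.96), and for Trib2 Amot, Zfpm1, and C130060K24Rik (0.95 to 0.96). Zfpm1, the GATA cofactor FOG1, was on the lists of both Meis1 and Trib2.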

How the data were processed

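RNA-seq of 12 libraries was analysed, 2 for each of 6 groups. Per the paper's methods, the authors extracted RNA from equal numbers of cells, added ERCC RNAs, prepared libraries with the TruSeq RNA kit v2, aligned reads with Bowtie, and normalized expression by loess on the ERCC RNAs. The submitters' processing notes name mm9, HISAT, and Cufflinks 2.0.0 instead. The deposited values are FPKM for 23309 genes and 92 ERCC RNAs. They hold no counts, so depth is unknown and no counting error is given. A total of 0 columns of per-sample values were left unused. Column names gave genotype and time, but end in digits other than the titles' replicate numbers, so the 2 libraries of a group are called first and second in the order listed. They are biological replicates per the authors.

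The 11516 genes that reached 1 FPKM in 2 or more libraries were tested on log2(FPKM + 1) with limma 3.58.1 in R 4.3.3 (lmFit, eBayes with trend, 6 group means, two-sided, Benjamini-Hochberg over all tested genes, threshold of 0.05 on the adjusted p-value). The prior degrees of freedom were infinite, so a gene's own spread did not enter its p-value. Exact permutation tests over libraries were therefore run for single genes and shares, 4 against 4. On simulated data with 200 of 11516 genes changed by 2 on the log2 scale from 0 to 96 h, limma recovered 91% when each gene had its own noise, with 4.71% false calls. The simulation held no shift shared by the genes of a library. In the data 85.9% of genes were called in that comparison, and the medians of the wild-type libraries at 0 h were 3.91 and 4.78. The simulated share of false calls therefore does not carry over to these data.

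The members, the gene lists, and the tests were chosen with earlier results of these data known. Besides the members, Hmgn1, and Hoxb8, the text names from each list up to 3 called genes with the largest rise and fall from 0 to 96 h, genes called between genotypes or in an interaction, and the 3 genes most like each member. Some of these genes are not reported here. Flt3, Cebpe, Gata2, S100a9, Gpsm3, Epx, Prg2, Mmp9, and Hoxa3 were also named after their values were seen. The marker lists of other lineages were erythroid, megakaryocyte, lymphoid, mast cell, basophil and eosinophil, and macrophage genes. Promoters come from RefSeq (GRCm38.p6) and gene overlaps from GENCODE vM21. Gene coordinates are not given because that build differs from mm9. Scripts used Python 3.11.15, numpy 2.4.6, pandas 2.3.3, and matplotlib 3.10.9. Alternatives were pseudocounts of 0.1 and 0.01, other filters, centring of each library on its median, quantile normalization, other variance models, centring without the second wild-type library at 36 h (added later), fits of only the groups compared, and each library left out in turn.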

Additional observations from a re-analysis of the deposited data

Results flagged for a closer look

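The fall of Hoxa7 from 0 to 96 h differed between the genotypes, with an interaction of -1.88 on the log2 scale (SE 0.51, adjusted p = 0.0356, limma). Hoxa7 was at 15.9 and 3.67 FPKM at 0 h and at 0.324 and 0.907 FPKM at 96 h in HMGN1-OE cells, and at 1.47 and 0.143 FPKM at 0 h and at 0.167 and 0.047 FPKM at 96 h in wild-type cells, where it was near the level of genes without signal in 1 of the 2 libraries at 0 h. Relative to the library medians the interaction was -2.41 and was not called (adjusted p = 0.485, limma). The replicate libraries of a group differed by more than 4-fold at 0 h in both genotypes.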

How the results depend on the processing

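Called directions turned under changes of scale, alone or with a library left out, while leaving out the second wild-type library at 36 h by itself turned uncalled values, among them the genotype differences of Meis1 and Trib2 at 36 h. Pbx2, lower as deposited, was higher in all 6 comparisons that end at 96 h after centring on library medians, quantile normalization, or centring with a pseudocount of 0.1. In wild-type cells its change was 1.11, 1.29, and 1.29 from 36 to 96 h and 1.11, 1.28, and 1.28 from 0 to 96 h, in HMGN1-OE cells 1.04, 1.15, and 1.15 and 0.98, 1.05, and 1.08, and over both 1.07, 1.22, and 1.22 and 1.05, 1.17, and 1.18. Centring in wild-type cells also turned Pknox1 (0.062 from 36 to 96 h, 0.036 from 0 to 96 h), Tgif2 (0.26 from 36 to 96 h), and Pbx4 (0.056 from 0 to 96 h), none of them called. Centring lowered the count of members called to 2, 2, 2, 3, 3, and 4 for these 6 comparisons (wild-type, HMGN1-OE, and both, 36 to 96 h before 0 to 96 h), and with the pseudocount of 0.1, added after the values were seen, it was 5 in wild-type cells from 36 to 96 h (69.6% of all genes). A minimum mean of 5 FPKM gave 5, 4, 4, 4, 5, and 4 of the 5 members it kept, beside 71.2% to 92.8% of its 8921 genes. Leaving out 1 library in turn gave 0 to 1 members from 0 to 36 h over both genotypes, with Trib2 called without the second wild-type library at 36 h, and 0 to 1 between genotypes at 36 h, with Trib2 called without the first. Centring without the second wild-type library at 36 h, added after the values were seen, left 2 members called from 36 to 96 h in wild-type cells (63.5% of all genes) and 2 over both genotypes (74.2%). In wild-type cells it turned Meis1 (0.14), Pbx3 (0.26), Pbx4 (0.12), Pknox1 (0.093), Tgif2 (0.51), and Trib2 (0.74), none of them called, and Pbx2 (1.10), and over both genotypes Pbx2 (1.07). All other values of members kept their direction or were not called in either setting, and a call was lost with its direction kept 81 times, 28 of them under centring, 12 under centring with the pseudocount of 0.1, and 11 under quantile normalization. Over both genotypes, the genes called from 0 to 36 h, 254, ranged from 3 in a linear model without moderation to 959 after centring without the second wild-type library at 36 h, and from 136 to 468 when 1 library was left out. Between genotypes at 0 h, 157 genes became 3 to 142, and 86 to 277 when 1 library was left out.

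No paired analysis was possible because column names end in 0 and 1 while sample titles number the replicates 1 and 2 and no source joins them, so no fit with a replicate block was made. With 2 libraries a group, an unchanged level of a member between genotypes was not shown.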
